A study of Mus musculus with 12 samples.

Results

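The genes examined here are 10 early response transcription factors of 3 families, namely Egr1, Egr2, Egr3 and Egr4, the nuclear receptors Nr4a1 and Nr4a3, and the Krüppel-like factors Klf2, Klf4, Klf6 and Klf10. They were picked by gene symbol from the 55357 genes listed in the deposited count tables, and each symbol matched 1 gene. RNA came from the cerebral cortex of E17.5 mouse embryos, dissected together with the hippocampal formation and cut into rostral and caudal pieces. Knockout (KO) embryos (NcreEGFRFF) are labelled as carrying the Nestin-Cre transgene with both alleles of Egfr floxed; Egfr codes for the epidermal growth factor receptor. For control embryos (EGFRF+) the labels name 1 floxed and 1 intact allele and no Cre. Nestin-Cre acts in neural progenitors, which pass the deletion on to the neurons and glia they form, whereas microglia come from another lineage. The titles name 6 embryos, KO embryos 5, 2 and 7 and control embryos 1, 3 and 9, each with a rostral and a caudal library, giving 4 groups of 3 libraries.

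Early response genes are transcribed within minutes of a signal, without new protein synthesis, and many code for transcription factors that pass the signal on. Growth factor receptors reach them through the ERK kinase cascade, which phosphorylates cofactors of serum response factor (SRF) bound at CArG boxes, and calcium and cyclic AMP reach them through CREB bound at cyclic AMP response elements (CRE). In neurons, Egr1, Egr3 and Nr4a1 are widely used as marks of recent activity, and in blood vessels Klf2 and Klf4 respond to flow.

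Total counts per library ran from 25223733 to 30383672. Egfr was at 3.60 to 7.33 CPM (counts per 1000000 counts) in the 6 KO libraries, against 19.2 to 41.6 CPM in the 6 control libraries, the order that the genotype labels give. The pairing by title and the region labels were not borne out in the same way. Xist and transcripts of the Y chromosome put both libraries of a titled embryo in the same class in 1 of 6 embryos, and control rostral 1 and control rostral 3 held both kinds. Nr2f1, a transcription factor graded along the cortex with its high end caudal, ran from 50.7 to 373 CPM without separating the labelled parts. Markers of neurons summed to 4049 to 5321 CPM in KO libraries and 4444 to 5383 CPM in control libraries, so that neurons were present in each. This sum does not show which part of the forebrain they came from. Comparisons below follow the labels, and sums and differences within titled embryos rest on the titles alone. Mitochondrial genes took up to 7.25% of counts in KO rostral 7 and KO caudal 5, and at most 3.53% in the other libraries.

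Promoter sequence of 7 of the 10 factors (not Egr1, Egr3 or Klf10) was read from RefSeq windows of build GRCm38.p6, of which the 250 bases before the start were searched on both strands. The search used the CArG box (CC, then 6 bases that are each A or T, then GG), the full CRE TGACGTCA, the CRE half-site TGACG, which the full CRE contains, and the Egr site GCGNGGGCG. Windows of Egr2, Nr4a1, Nr4a3 and Klf6 are shown to give the Egr2 window with both elements, both Nr4a windows with several half-sites, and a window with neither element. Capitals mark CArG boxes and CRE half-sites, with CGTCA being the half-site on the other strand.
Egr2, chr10:67537619-67537868, plus strand: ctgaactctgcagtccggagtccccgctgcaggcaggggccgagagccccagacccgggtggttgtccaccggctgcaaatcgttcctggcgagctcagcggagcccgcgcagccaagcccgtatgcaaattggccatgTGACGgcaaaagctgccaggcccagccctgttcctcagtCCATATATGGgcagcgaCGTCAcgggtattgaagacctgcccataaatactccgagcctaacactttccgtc
Nr4a1, chr15:101266596-101266845, plus strand: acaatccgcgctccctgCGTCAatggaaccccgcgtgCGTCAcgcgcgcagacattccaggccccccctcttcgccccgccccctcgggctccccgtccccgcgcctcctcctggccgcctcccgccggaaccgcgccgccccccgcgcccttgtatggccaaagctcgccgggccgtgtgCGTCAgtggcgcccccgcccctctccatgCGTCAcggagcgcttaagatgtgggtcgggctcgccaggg
Nr4a3, chr4:48045055-48045304, plus strand: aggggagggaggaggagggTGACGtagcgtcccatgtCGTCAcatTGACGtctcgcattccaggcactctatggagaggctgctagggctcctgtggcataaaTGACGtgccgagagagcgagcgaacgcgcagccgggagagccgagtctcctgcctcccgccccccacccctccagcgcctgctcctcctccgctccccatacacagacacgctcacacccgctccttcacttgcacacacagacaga
Klf6, chr13:5861239-5861488, plus strand: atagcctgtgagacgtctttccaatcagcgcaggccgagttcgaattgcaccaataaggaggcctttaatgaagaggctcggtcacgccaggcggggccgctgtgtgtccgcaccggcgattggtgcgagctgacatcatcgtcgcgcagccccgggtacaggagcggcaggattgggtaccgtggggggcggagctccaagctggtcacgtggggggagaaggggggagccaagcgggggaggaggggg

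Egr2 had 5 annotated starts, and 4 of its windows held a CArG box. Of these windows 3 overlap and share the box printed above, so there were 2 distinct boxes. Of 32851 mouse promoter windows of this length, 1.47% hold one. None of the other 6 factors had one in this window. Nr4a1 and Nr4a3 each held 4 CRE half-sites, whereas 0.137% of windows hold 4 or more and 17.8% hold at least 1. Egr4 held 2 half-sites, Klf2 and Klf4 held 1 each, and the Klf6 window held none. No window of a factor held the full CRE, which is found in 1.55% of windows. The Egr site, found in 4.7% of windows, occurred 2 times in Klf4 and 1 time each in Klf2 and Nr4a1. A match in these letters describes the sequence and shows neither binding nor use.

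Compared per length, as transcripts per 1000000 (TPM) averaged over the 12 libraries, Egr1 stood first at 196.8 TPM and was above 98.4% of detected genes. Klf6 followed at 49.0 TPM and Nr4a3 at 41.0 TPM. Klf2, Egr3, Klf10, Klf4, Nr4a1 and Egr2 lay between 12.1 and 3.85 TPM in that order, and Egr4 was at 0.0737 TPM. The ranges of neighbours in this order overlapped, except that of Egr1 (94.5 to 321 TPM), which lay above that of Klf6 (31.5 to 66.0 TPM), and that of Egr4. The spread between libraries was widest for Nr4a3, whose highest level was 12.6 times its lowest, and narrowest for Klf10, at 1.65 times. These statements on spread leave out Egr4, which had a count of 0 in some libraries.

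Between KO and control, Egr1, Egr3 and Klf6 had lower levels in KO libraries of both labelled parts, with groups that did not overlap in either part. Egr2, Klf2 and Klf4 stood apart in the caudal libraries and overlapped in the rostral ones, Nr4a1 differed less, and Nr4a3 and Klf10 showed no common direction. None of the 9 factors tested passed edgeR's quasi-likelihood test at a Benjamini-Hochberg adjusted p under 0.05 in any comparison, so these are descriptions of levels. In bulk tissue, fewer cells of a type and less RNA per cell cannot be told apart.

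Egr1 codes for a zinc-finger activator that is the founding member of its family, and it lies on chromosome 18 (GRCm39, 34992876 to 34998037, plus strand). Its level was 164, 240.5 and 177 CPM in KO rostral 5, 2 and 7, against 286, 295 and 332 CPM in control rostral 1, 3 and 9. In the caudal parts it was 241, 223 and 309.6 CPM in KO embryos 5, 2 and 7, against 360.4, 467 and 428 CPM in control embryos 1, 3 and 9. Every KO library was thus below every control library of its part, while the highest KO library, caudal 7, exceeded 2 of the 3 rostral controls. The log2 fold change of KO over control was -0.62 (SE 0.16) in rostral and -0.69 (SE 0.16) in caudal libraries. Summed over the pieces of each titled embryo, Egr1 averaged 226 ± 18.9 CPM in KO and 362 ± 34.0 CPM in control embryos (SD, n = 3 each). Libraries paired by title tended to deviate from their group means in opposite directions, with correlations of -0.70 to -0.255 over 1000 variable genes. Summing such libraries narrows the spread, so SDs, SEs and p-values of the sums are too small where the titles pair the wrong libraries. Sex-linked transcripts were of the same class in only 1 of 6 titled pairs. This holds for the sums of every factor below. The log2 fold change of the sums was -0.66 (SE 0.093), with an adjusted p of 0.121 by edgeR's quasi-likelihood test. With all 12 libraries as separate samples it was -0.65 (SE 0.12, adjusted p = 0.260 by the same test). That fit treats the libraries as independent, although the titles pair them.

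Egr3, a family member that takes part in muscle spindle formation and in neuronal responses to activity, lies on chromosome 14 (70314652 to 70320063, plus strand). It stood at 6.15, 10.5 and 9.73 CPM in KO rostral 5, 2 and 7, against 12.02, 13.5 and 21.2 CPM in control rostral 1, 3 and 9. In caudal libraries it stood at 9.17, 12.6 and 11.8 CPM in KO embryos 5, 2 and 7, against 19.8, 34.1 and 19.6 CPM in control embryos 1, 3 and 9. Control caudal 3 was the highest library, as it was for Egr1, and neither part showed overlap between genotypes. KO over control came to a log2 fold change of -0.79 (SE 0.30) in rostral libraries, -1.12 (SE 0.25) in caudal libraries and -0.99 (SE 0.20) in the sums. The rostral value was -0.48 without control embryo 9 and -1.27 without control rostral 1 and 3, which leaves control rostral 9 as the only control. That in the sums had an adjusted p of 0.737 by edgeR's quasi-likelihood test, and it was the largest in size of the 9.

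Egr2, also called Krox20, is needed for the segmentation of the hindbrain and for myelination by Schwann cells (chromosome 10, 67371305 to 67378018, plus strand). KO rostral 5, 2 and 7 had 1.94, 5.28 and 2.07 CPM, against 3.32, 6.11 and 3.65 CPM in control rostral 1, 3 and 9. KO caudal 5, 2 and 7 had 2.53, 2.52 and 5.00 CPM, against 6.21, 5.13 and 8.27 CPM in control caudal 1, 3 and 9. KO rostral 2 lay above 2 of the 3 rostral controls, and the caudal groups stood apart by a narrow gap. The log2 fold change was -0.45 (SE 0.45) in rostral and -0.95 (SE 0.32) in caudal libraries, and -0.73 (SE 0.20) in the sums. The rostral value was -1.07 without KO embryo 2, -0.20 without KO embryo 5, -0.24 without KO embryo 7 and -0.15 without control embryo 3. The adjusted p of the sums was 0.9999 by edgeR's quasi-likelihood test.

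Egr4, a family member known from neurons and germ cells (chromosome 6, 85488103 to 85490571, minus strand), was at the limit of detection. It had counts of 0, 1 and 1 in KO rostral 5, 2 and 7, against 3, 4 and 1 in control rostral 1, 3 and 9. Counts were 0, 0 and 1.5 in KO caudal 5, 2 and 7, against 1, 1 and 3 in control caudal 1, 3 and 9. It was left out of the tests by the filter on low counts, and at this depth no difference can be read from it.

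Nr4a1, or Nur77, is an orphan nuclear receptor induced by growth factors and by neuronal activity (chromosome 15, 101152150 to 101172676, plus strand). Its level was 7.73, 6.50 and 6.50 CPM in KO rostral 5, 2 and 7, against 9.16, 9.00 and 7.19 CPM in control rostral 1, 3 and 9. In caudal libraries it was 5.78, 6.18 and 6.66 CPM in KO embryos 5, 2 and 7, against 6.36, 9.05 and 11.2 CPM in control embryos 1, 3 and 9. The lowest control library overlapped the KO group in each part. In the sums the groups did not overlap, at 6.54 ± 0.18 CPM in KO and 8.66 ± 0.77 CPM in control embryos (SD, n = 3 each). The log2 fold change of the sums was -0.38 (SE 0.10), with an adjusted p of 0.9999 by edgeR's quasi-likelihood test.

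Nr4a3, or Nor1, is a close relative that binds the same DNA element (chromosome 4, 48045153 to 48086447, plus strand). It was at 36.1, 172 and 42.5 CPM in KO rostral 5, 2 and 7, against 73.3, 138 and 26.3 CPM in control rostral 1, 3 and 9. It was at 75.5, 13.6 and 141 CPM in KO caudal 5, 2 and 7, against 102, 32.5 and 124 CPM in control caudal 1, 3 and 9. The highest and the lowest library of all 12 were those titled rostral and caudal of KO embryo 2. Their sex-linked transcripts differed, with Xist at 0.07 and 426 CPM and Y genes at 162 and 0 CPM, so the title does not pair parts of 1 embryo here. Summed by title, high and low libraries nearly cancelled, and Nr4a3 averaged 81.0 ± 21.2 CPM in KO and 81.8 ± 6.56 CPM in control sums (SD, n = 3 each). The log2 fold change of the sums was 0.01 (SE 0.20), with an adjusted p of 0.9999 by edgeR's quasi-likelihood test.

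The order of the libraries by Nr4a3 ran close to their order by Nr2f1. The 5 libraries with the highest Nr4a3, from 102 to 172 CPM, were the 5 with the highest Nr2f1, from 340.2 to 373 CPM, and came from KO rostral 2, KO caudal 7, control rostral 3 and control caudal 1 and 9. KO caudal 2, control rostral 9 and control caudal 3, with the lowest Nr4a3, were also the 3 lowest for Nr2f1, at 71.3, 50.7 and 58.6 CPM. Taking each gene's log2(CPM + 0.5) around its own mean over the 12 libraries, the root mean square difference between the 2 genes was 0.60, against 1.09 for the variation of Nr4a3 itself. By that measure Nr2f1 was the gene ranked 70 of 14238 in likeness to Nr4a3. Among the closest were Nhlh2 at 0.27 and Cnih3 at 0.34. Nhlh2 codes for a basic helix-loop-helix factor and Cnih3 for an auxiliary protein of AMPA receptors. Nr4a2, the Nr4a gene outside the set, which marks subplate and claustrum neurons, was at 5.19 to 37.3 CPM in KO libraries and 6.71 to 25.2 CPM in control libraries. Its highest library was KO rostral 2 as well.

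Klf6, a Krüppel-like factor induced by injury and growth signals (chromosome 13, 5911481 to 5920393, plus strand), gave the tightest difference. Its level was 62.2, 58.7 and 57.8 CPM in KO rostral 5, 2 and 7, against 78.9, 68.8 and 86.4 CPM in control rostral 1, 3 and 9. In caudal libraries it was 59.8, 69.4 and 53.8 CPM in KO embryos 5, 2 and 7, against 85.3, 94.2 and 84.0 CPM in control embryos 1, 3 and 9. The highest KO library exceeded the lowest control library by less than 1 CPM, and all other KO libraries were below all controls. The sums gave 60.2 ± 4.02 CPM in KO and 83.1 ± 1.85 CPM in control embryos (SD, n = 3 each). Their log2 fold change was -0.44 (SE 0.056), with an adjusted p of 0.0867 by edgeR's quasi-likelihood test, the smallest of any factor in any comparison. It ranked 7 of 18937 genes by p there, and Egr1 ranked 12. Without KO embryo 2 the value was -0.47, with an adjusted p of 0.0277 by the same test. Over the 11 alternatives run the adjusted p ran from 9.4e-08, in edgeR without the filter on low counts, to 0.33.

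Klf4, a factor of stem cells and of endothelium (chromosome 4, 55527143 to 55532466, minus strand), was at 4.39, 5.42 and 8.57 CPM in KO rostral 5, 2 and 7, against 5.42, 8.01 and 7.64 CPM in control rostral 1, 3 and 9. It was at 8.16, 7.71 and 9.06 CPM in KO caudal 5, 2 and 7, against 14.2, 11.8 and 17.9 CPM in control caudal 1, 3 and 9. The rostral groups overlapped, and the caudal groups did not. This gave log2 fold changes of -0.15 (SE 0.30) in rostral and -0.80 (SE 0.18) in caudal libraries, with adjusted p of 1 and 0.508 by edgeR's quasi-likelihood test.

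Klf2, which keeps endothelium quiescent and is also made by lymphocytes and other blood cells (chromosome 8, 73072877 to 73075500, plus strand), took the same course. It stood at 3.88, 4.65 and 8.32 CPM in KO rostral 5, 2 and 7, against 4.01, 6.03 and 6.30 CPM in control rostral 1, 3 and 9. It stood at 8.11, 4.70 and 7.03 CPM in KO caudal 5, 2 and 7, against 10.9, 9.77 and 16.9 CPM in control caudal 1, 3 and 9. KO rostral 7 had the highest level of the rostral libraries, and the caudal controls were above all other libraries. For Klf2 the log2 fold change was 0.09 (SE 0.35) in rostral and -0.91 (SE 0.27) in caudal libraries, with adjusted p of 1 and 0.755 by edgeR's quasi-likelihood test. Without KO embryo 7, the rostral value for Klf2 was -0.33.

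Klf10, first described as a gene induced by transforming growth factor beta (chromosome 15, 38291707 to 38300950, minus strand), varied least. KO rostral 5, 2 and 7 had 12.4, 10.96 and 12.6 CPM, against 13.2, 15.1 and 13.5 CPM in control rostral 1, 3 and 9. KO caudal 5, 2 and 7 had 13.9, 15.5 and 13.6 CPM, against 13.4, 13.1 and 13.98 CPM in control caudal 1, 3 and 9. KO libraries were below controls in the rostral part only. Its log2 fold change was -0.18 (SE 0.12) in rostral libraries, 0.10 (SE 0.11) in caudal libraries and -0.04 (SE 0.071) in the sums, where the adjusted p was 0.9999 by edgeR's quasi-likelihood test.

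**Figure D1:**
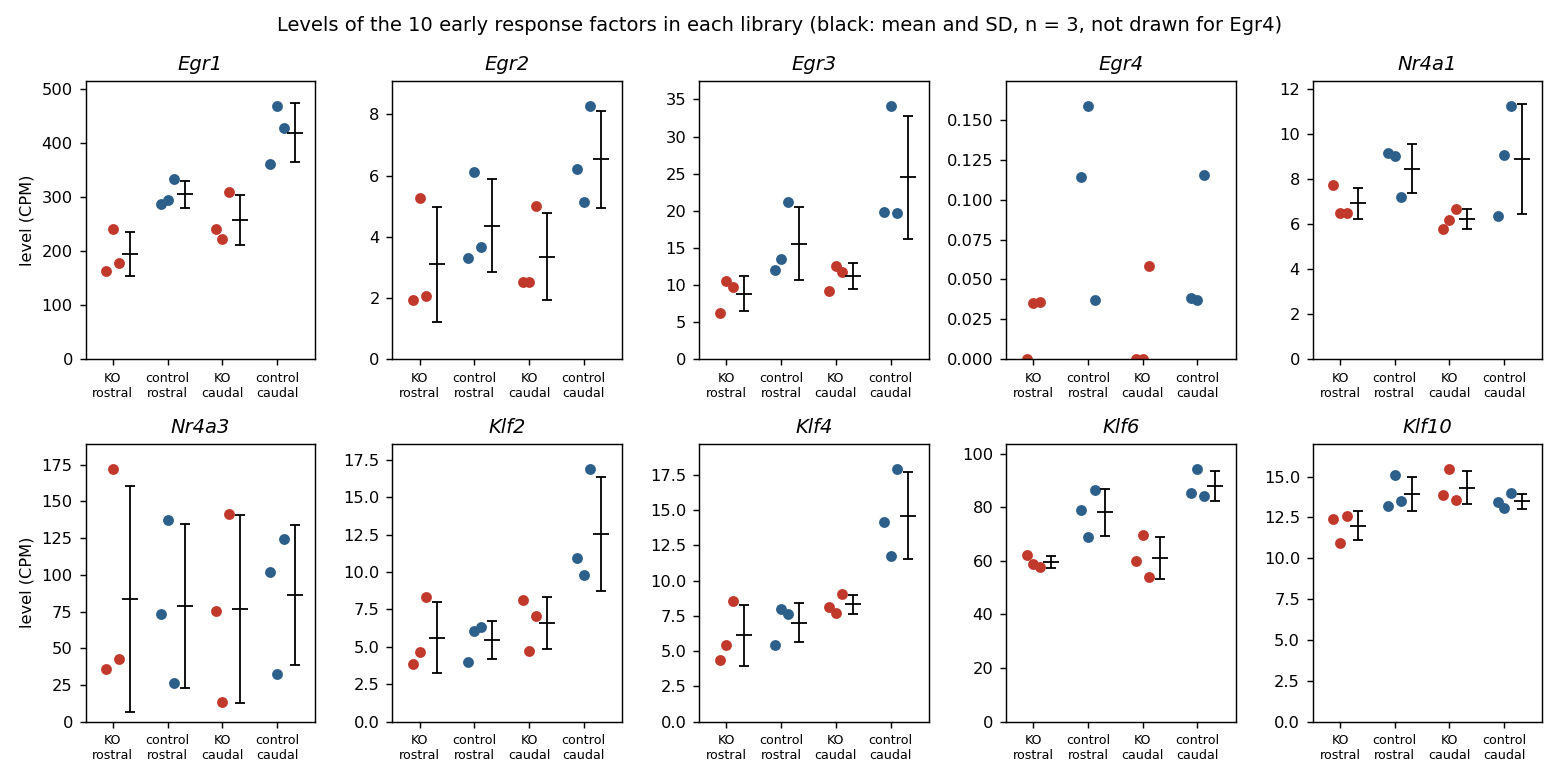
Level of each of the 10 factors in CPM (vertical axes from 0) in each library, by genotype and labelled part (n = 3 each, black bars mean and SD, not drawn for Egr4). KO points lie below control points without overlap in both parts for Egr1, Egr3 and Klf6, while the points of Nr4a3 spread from 13.6 to 172 CPM in KO libraries.

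As a set, the factors leaned towards lower levels in KO libraries. Of the 9 tested, 4 were lower in KO without overlap in rostral libraries, where the same held for 4.75% of all 17131 genes tested. None of the 9 was higher in KO without overlap in rostral libraries, caudal libraries or sums, where 1.45%, 4% and 3.07% of all genes were. In caudal libraries 6 were lower without overlap (6.14% of 16964 genes), and in the sums 7 were (5.22% of 18937 genes), among them Klf10 with a log2 fold change of only -0.04. Over all 12 libraries 0 of 9 were free of overlap (0.0902% of 17734 genes). The exact two-sided permutation p of each such single difference between 3 and 3 samples was 0.1, the smallest that this design allows.

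By edgeR's quasi-likelihood test with Benjamini-Hochberg adjustment, 0 of 9 factors were called in rostral libraries (0% of all genes), caudal libraries (0.0472%), sums (0.0317%) and all 12 libraries (0.0169%). At an unadjusted p under 0.05, all in the direction of lower levels in KO, 3 of 9 passed in rostral libraries (0.455% of genes were lower by that rule). In caudal libraries 6 of 9 passed (3.13%), in the sums 6 (1.57%), and over the 12 libraries 6 (0.84%). The Wald test of DESeq2 called 0 of 9 in rostral libraries (0.0233% of genes). It called Egr1, Egr3, Klf4 and Klf6 in caudal libraries (0.442%), and Egr1, Egr3 and Klf6 in the sums (0.169%) and over the 12 libraries (0.0733%), each lower in KO. Its adjusted p in the sums was 2.6e-08 for Egr1, 5.1e-05 for Egr3 and 5.25e-07 for Klf6, values that rest on the spread narrowed by summing titled pairs. Calls of these 3 factors in the sums also depended on the filter on low counts, on a block for the titled number and on the embryos included.

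The median log2 fold change of the 9 factors was -0.25 in rostral libraries, -0.69 in caudal libraries, -0.52 in the sums and -0.43 over the 12 libraries, whereas the median of all tested genes was within 0.002 of 0 in each. Fold changes were negative for 7, 8, 8 and 9 of 9 factors in those 4 comparisons. The 4 comparisons draw on the same libraries and do not support one another.

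**Figure D2:**
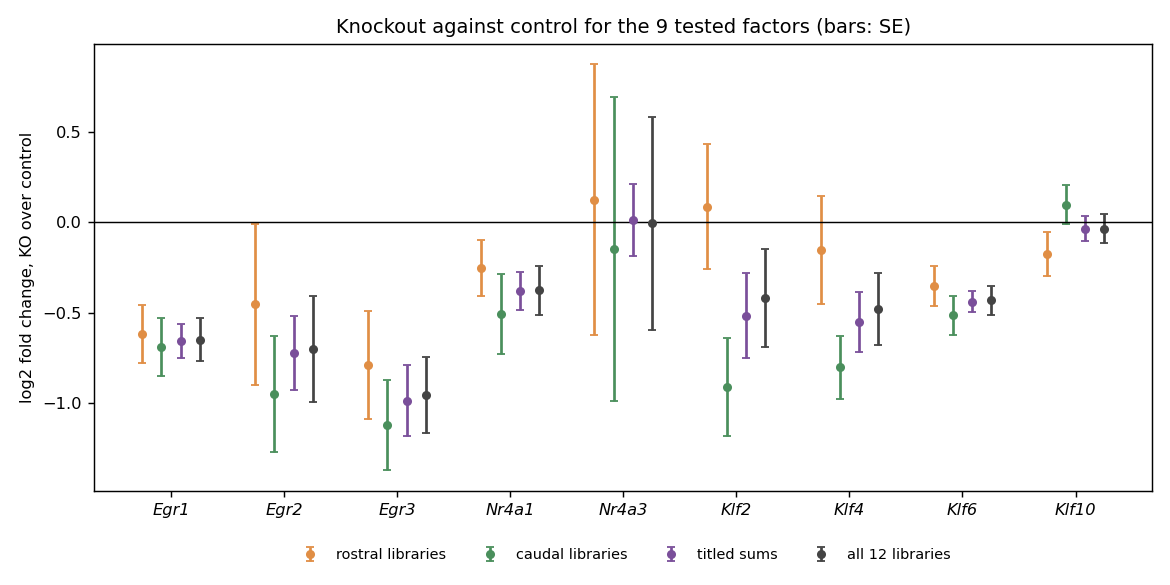
Log2 fold change of KO over control (vertical axis, bars SE) for the 9 tested factors (horizontal axis), from rostral libraries, caudal libraries, sums per titled embryo and all 12 libraries. Egr1 lies between -0.62 and -0.69 in the 4 comparisons, whereas Nr4a3, Klf2 and Klf10 lie on both sides of 0, Klf2 above it in rostral libraries only.

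Between the parts, Egr1, Egr3, Klf2 and Klf4 had higher mean levels in libraries labelled caudal than in those labelled rostral, without passing the test after adjustment. Klf4 averaged 11.5 ± 3.99 CPM in caudal and 6.58 ± 1.71 CPM in rostral libraries (SD, n = 6 each), and its caudal library was higher in 6 of 6 titled embryos, which held for 1.01% of all genes. Its log2 fold change within titled embryos was 0.81 (SE 0.18), with an adjusted p of 0.591 by edgeR's quasi-likelihood test. Klf2 averaged 9.57 ± 4.19 CPM in caudal and 5.53 ± 1.70 CPM in rostral libraries (SD, n = 6 each), with a log2 fold change of 0.77 (SE 0.25, adjusted p = 0.692 by edgeR). Egr1 and Egr3 had log2 fold changes of 0.47 (SE 0.12) and 0.54 (SE 0.18), with caudal above rostral in 5 of 6 titled embryos each. Klf2 and Klf10 also had 5 of 6, and the share of all genes with 5 of 6 was not counted. In this comparison 0 of 9 factors were called by edgeR (0% of genes), 4 of 9 were higher in caudal libraries at an unadjusted p under 0.05 (2.63%), and DESeq2 called Klf4 alone (0.507%). Nr4a1, Klf6 and Klf10 had log2 fold changes of -0.02, 0.13 and 0.14. Egr2 had 0.44 (SE 0.32), with caudal above rostral in 4 of 6 titled embryos. Nr4a3, at 0.19 (SE 0.84), was too variable within titled pairs to place. In the same comparison microglial markers were positive in 8 of 9, with a median log2 fold change of 0.48, and ventral forebrain and striatal markers in 12 of 14, with a median of 0.28, none called. Endothelial markers were negative in 10 of 12, with a median of -0.085. The part of these cells in the difference between the labelled parts was not tested.

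Whether the KO difference itself depended on the part was tested by an interaction within titled embryos. It was largest in size for Klf2, at -0.94 (SE 0.40) on the log2 scale, with an adjusted p of 1 and an unadjusted p of 0.0532 by edgeR's quasi-likelihood test. Klf4 followed with -0.59 (SE 0.31), and Egr1 had -0.06 (SE 0.26). By edgeR 0 of 9 factors were called (0% of genes), and 0 had an unadjusted p under 0.05, which 0.795% of genes had with a negative and 0.648% with a positive sign. A difference between the parts is therefore not shown for any of them, although only the caudal groups of Klf2 and Klf4 stood apart. Libraries paired by title tended to deviate from their group means in opposite directions, which widens differences within pairs. The SEs here and between the parts are thus too large if the titles pair the wrong libraries.

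Klf2 and Klf4 ran closest to each other of all pairs among the 9 factors, with a root mean square difference of 0.17 log2 units over the 12 libraries, against 0.57 and 0.53 for their own variation. Both factors are also made in cells of vessels and blood, whose markers were read beside them. The 9 microglial markers summed to 76.3 to 198 CPM in KO libraries and 74.0 to 167 CPM in control libraries. Between KO and control they were positive in 9 of 9 in rostral libraries and negative in 7 of 9 in caudal libraries, with none called. The 12 endothelial markers summed to 151 to 300.4 CPM in KO libraries and 154 to 301 CPM in control libraries. They were positive in 12 of 12 in rostral libraries and negative in 11 of 12 in caudal libraries, with none called. The root mean square difference of Klf2 was 0.36 from the microglial sum and 0.61 from the endothelial sum, and that of Klf4 was 0.38 and 0.60. From the red blood cell, radial glial, mural and meningeal sums, Klf2 differed by 0.47, 0.53, 0.57 and 0.575, and Klf4 by 0.52, 0.49, 0.56 and 0.64. Among these sums, the endothelial and meningeal values of both factors and the mural value of Klf4 were above the variation of the factor itself. The measure depends on how much each sum varies, so these values alone do not settle likeness. Between KO and control, mural markers were positive in 6 of 6 in rostral and negative in 6 of 7 in caudal libraries. Red blood cell markers were positive in 7 of 8 in rostral and negative in 7 of 8 in caudal libraries, and meningeal markers positive in 5 of 5 and negative in 5 of 5, with none called. KO rostral 7, with the highest rostral Klf2, also had the highest microglial sum, red blood cell sum (12377 CPM) and mural sum (225 CPM). Control caudal 9, with the highest Klf2 and Klf4 of all libraries, had the highest meningeal sum (51.3 CPM, against at most 20.5 CPM in KO libraries). It also had the highest endothelial sum (301 CPM), just above that of KO rostral 7 (300.4 CPM). Nos3 and Thbd, endothelial genes that Klf2 and Klf4 activate, were both negative in caudal and both positive in rostral libraries. The part of these cells in the levels of Klf2 and Klf4 was not tested.

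**Figure D3:**
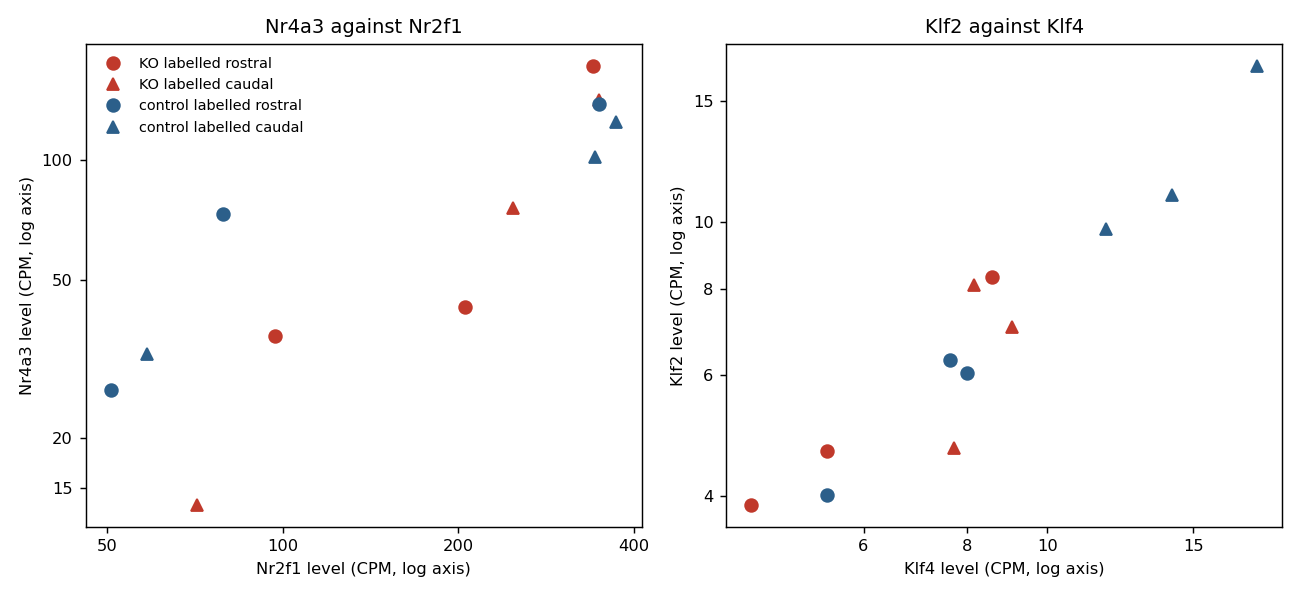
Left, level of Nr4a3 against that of Nr2f1, and right, level of Klf2 against that of Klf4, both axes logarithmic in CPM, 1 point per library with colour for genotype and shape for labelled part. The 5 libraries with Nr2f1 at 340.2 CPM or more hold the 5 highest levels of Nr4a3 and include both genotypes and both labels, and the 3 caudal controls stand at the upper end of the Klf pair.

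Egr1 and Egr3 had a root mean square difference of 0.28, against 0.45 and 0.61 for their own variation. Klf6 differed from Nr4a1 by 0.25 and from Klf10 by 0.26, where Klf6, Nr4a1 and Klf10 themselves varied by 0.26, 0.27 and 0.12. The measure depends on how much each gene varies, so these values alone do not settle likeness. Nr4a3, which itself varied by 1.09, was 0.85 from Egr2 and 1.07 or more from the other factors. The genes most like Egr1 among 14238 were Myc at 0.23, Plk2 at 0.23 and Arc at 0.27. Myc codes for a growth regulator, Plk2 for a kinase induced by activity and Arc for a synaptic protein of the early response class. In the sums these 3 had log2 fold changes of -0.38 (SE 0.090), -0.51 (SE 0.068) and -0.63 (SE 0.17), with adjusted p from edgeR of 0.992, 0.109 and 0.9999. The genes most like Klf6 were Srf at 0.12, the small Maf gene Mafk at 0.15 and the predicted gene Gm6363 at 0.15. Srf itself, the factor that binds CArG boxes, had a log2 fold change of -0.32 (SE 0.066) in the sums, with an adjusted p of 0.668 by edgeR. These genes were picked for likeness over the same libraries, so their fold changes follow in part from the choice.

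**Figure D4:**
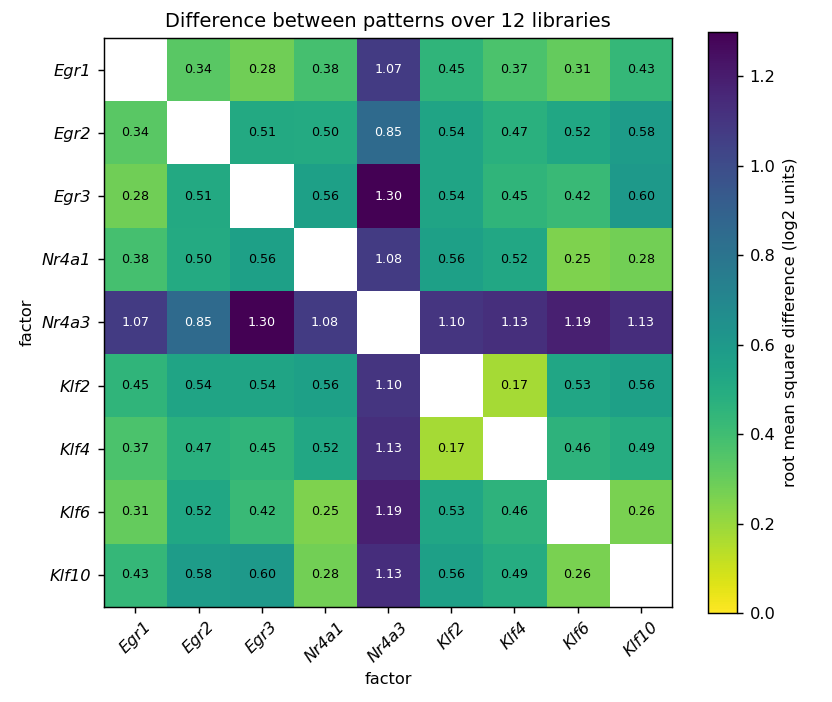
Root mean square difference, in log2 units, between the patterns of each pair of the 9 tested factors over the 12 libraries, each centred on its own mean. Klf2 and Klf4 form the closest pair at 0.17, and the row of Nr4a3 holds values of 0.85 and above.

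Other genes of the pathway were read from lists, in which edgeR called no member in any comparison of KO with control. Of 19 other early response genes, all tested, 17 were negative and 2 positive in the sums, with a median log2 fold change of -0.23, and the 2 with the smallest p there were Nptx2 at -0.53 (SE 0.14) and Arc. In caudal libraries 16 of the 19 were negative, with a median of -0.41, led by Maff at -0.71 (SE 0.13) and Atf3 at -0.86 (SE 0.18). Of 6 genes of SRF and its cofactors, 5 were negative in the sums, with a median of -0.05. The 13 genes of the ERK cascade had 6 positive and 7 negative values in the sums and a median within 0.001 of 0. Of 8 genes of CREB and its coactivators 6 were negative, with a median of -0.03, and of 4 MEF2 factors 3 were, with a median of -0.145. Nab1 and Nab2, corepressors that bind Egr proteins, had log2 fold changes of 0.07 (SE 0.070) and 0.08 (SE 0.12). Of 11 tested further Klf genes 8 were negative, with a median of -0.05, and of 8 heat shock genes, which stress induces, 5 were negative, with a median of -0.05.

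Markers of ventral forebrain and striatum (a part of the forebrain that the dissection set aside) were negative in 14 of 14 in the sums, with a median log2 fold change of -0.46 and none called. They summed to 186 to 867 CPM in KO libraries and 271 to 1102 CPM in control libraries. The library with the highest sum, control caudal 3, was also the highest for Egr1, Egr3 and Klf6. The second highest sum was in KO caudal 2, where Egr1 was at 223 CPM and Klf6 at 69.4 CPM. The part of ventral tissue in the levels of the factors was not tested.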

How the data were processed

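RNA-seq counts of 12 libraries were used as deposited. Per the file headers, the authors made them with featureCounts 2.0.3 on GENCODE annotation vM28 (GRCm39), on the reverse strand, with reads of several places or genes split in fractions, so the deposited values are expected counts. STAR 2.7.8a is named in the submitters' processing notes. Between 21.6% and 23.9% of detected genes had a value that is not whole.

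Rounded counts went into edgeR 4.0.16 under R 4.3.3 (TMM, filterByExpr, robust quasi-likelihood fit), over all genes, with Benjamini-Hochberg adjustment and a threshold of 0.05. The SE is the log2 fold change over the square root of F. CPM and TPM were computed from the library totals and exon lengths, and likeness from log2(CPM + 0.5) over autosomal genes at 1 CPM or more. Named besides the factors were checks of the labels, up to 2 genes per list with the smallest p, and the 3 genes most like the leading factor of each family. Some genes that this rule allows are not reported here. A simulation with 200 changed genes was used to test the scripts.

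Alternatives were DESeq2 1.42.0, its size factors, no filter, mitochondrial genes left out, limma 3.58.1 voom, blocks and left-out libraries. Fits with Nr2f1 as covariate, and without KO rostral 7 and KO caudal 5, were chosen after seeing the data. The factors and lists were chosen with earlier results of these data known. Titles number the embryos within 4858 and 4692, whose meaning is not given in the sources used here. The replicates of a group are separate embryos by title only, so that a p-value measures only the spread among these libraries. Promoters were read from RefSeq windows of GRCm38.p6, and gene coordinates are those of the files.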

Additional observations from a re-analysis of the deposited data

How the results depend on the processing

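Counts are given for factors among the 9 tested and then for all genes. The Wald test of DESeq2 called 0 and 4 in rostral libraries, 4 and 75 in caudal libraries, 3 and 32 in the sums, 3 and 13 over 12 libraries, and 1 and 90 between parts, against 0 factors and 0, 8, 6, 3 and 0 genes by edgeR. Without a filter edgeR called 2 genes in rostral libraries, 3 factors and 57 genes in caudal libraries, 6 and 110 in the sums, and 5 genes between parts. Each embryo left out in turn, edgeR called 2 to 8 genes in caudal libraries (2 without KO embryo 5, 4 without KO embryo 7, 5 without control embryo 9). In the sums it called 0 to 1 factors and 3 to 21 genes (3 without KO embryo 5, 21 without KO embryo 2, 10 without control embryo 3), the 1 factor being Klf6, called without KO embryo 2. Between parts it called 0 to 1 genes, the 1 without control embryo 9. With the titled numbers 4858 and 4692 as a block, 2 factors (Egr1 and Egr3) were called in the sums. The replicate block as a random effect in limma-voom also rests on the titled pairs. Their opposite deviations make its SEs too small if the titles pair the wrong libraries. With this block, 2 factors (Egr1 and Klf6) and 11 genes were called over 12 libraries. Without control rostral 1 and 3, 10 genes were.

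The titles pair the 2 parts of an embryo. Deviations from the group means over 1000 variable autosomal genes correlated at -0.70 to -0.255 in the 6 titled pairs, 0 of 6 above 0.1, and at -0.234 to 0.721 in the 12 other combinations, 9 of them above 0.1. Without the replicate block, 0 factors and 0 genes were called between parts and for the interaction.

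Egr1, Egr2, Egr3, Nr4a1 and Klf6 kept a negative fold change of KO over control under all alternatives run. Nr4a3 turned to -0.027 in rostral libraries and -0.020 in the sums with the titled number as block, and over 12 libraries to 0.16 without KO rostral 7 and KO caudal 5 and to 0.36 without control rostral 1 and 3. Without those 2 controls the rostral value of Nr4a3 was 1.66, against 0.12 with them, and that of Nr4a1 -0.06, against -0.25. Without them Klf2 turned to -0.16 in rostral libraries and Klf10 to 0.013 over 12 libraries. With each embryo left out in turn, Nr4a3 ranged from -0.95 to 0.78 in rostral libraries, from -0.94 to 0.36 in caudal libraries, from -0.12 to 0.22 in the sums, from -0.26 to 0.19 over 12 libraries, from -0.31 to 0.81 between parts and from -1.54 to 1.122 for the interaction. In rostral libraries Klf2 ranged from -0.33 to 0.31 and Klf4 from -0.49 to 0.048. Between parts Nr4a1 ranged from -0.155 to 0.069. For the interaction Egr1 ranged from -0.25 to 0.20, Egr2 from -0.98 to 0.20, Egr3 from -0.69 to 0.063 and Nr4a1 from -0.50 to 0.070. The causes were not tested. In all, 583 of the recomputed fold changes of factors kept their direction and side of the threshold, 25 passed it and 31 turned.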
